A study of Caenorhabditis elegans with 6 samples.

Results

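Small nucleolar RNA (snoRNA) genes were followed in total RNA of whole Caenorhabditis elegans. Genes were chosen by their annotation and by a readout, the summed raw count: a gene was taken when the Ensembl annotation of WBcel235 gives it the biotype snoRNA and its summed raw count over the 6 libraries was 60 or more. Of 346 annotated snoRNA genes among the 46748 genes of the count table, 167 met this rule, 283 had any count and 179 were under the summed count. The study compared wild-type worms of strain N2 with worms of strain VDL786, genotype crh-1(syb385), a knockout of the circular RNA circ-crh-1. The gene crh-1 encodes the worm CREB transcription factor. Both genotypes had 3 libraries from replicates that the design text calls independent. Worms of both groups were synchronised by hypochlorite, grown at 20 °C, moved as L4 larvae to plates with 25 µM FUdR, which blocks DNA synthesis and so prevents progeny, and filtered as day 1 adults on a 30 µm mesh. A stranded kit for total RNA was used on 1 µg per library. The labels name a single knockout strain, every animal had been on FUdR, and a count of crh-1 pools its linear and circular transcripts, so the circle itself is not measured here.

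snoRNAs are short noncoding RNAs of the nucleolus, where ribosomal RNA is made and processed. Those of the C/D box class pair with rRNA and guide ribose methylation by fibrillarin, and those of the H/ACA class guide pseudouridylation by dyskerin; a few act in rRNA cleavage instead. Many are cut out of the spliced introns of a host gene, which is often a gene for a ribosomal or nucleolar protein, and others are transcribed from their own promoters. The annotation used here does not give the class of a snoRNA, so classes are not assigned to the genes below, and no modification target is named for them.

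The libraries held 38974777 to 47444165 counts each. Knockout replicate 2 stood apart from the other 5 libraries: rRNA genes took 58.5% of its counts against 22.9% to 36.4% in the others, messenger RNAs of the mitochondrial genome took 5.13% of its protein-coding counts against 0.588% to 2.22%, and its TMM scaling factor was 0.626 against 1.06 to 1.13. The summed level of 5 body wall muscle markers was 1727 CPM (counts on the scaled library size, brought to a common total) in that library and 497 to 959 CPM in the other libraries, and the log2 fold changes of all 5 were positive (median 0.36, or -0.33 without knockout replicate 2 and 0.62 without knockout replicate 3). All 6 intestine markers were positive as well (median 0.19, or 0.30 without knockout replicate 2). Among tested markers, 4 of 5 for neurons, 2 of 3 for hypodermis and 1 of 3 for embryo were positive. All 8 germline and oocyte markers had negative log2 fold changes (median -0.33, or -0.05 without knockout replicate 2 and -1.30 without knockout replicate 3), and their summed level was 1103 to 4216 CPM in knockout and 1464 to 3860 CPM in wild type. The log2 fold changes of all 6 sperm markers were negative too, with a median of -0.79, or -0.48 without knockout replicate 2 and -0.39 without knockout replicate 3. None of these marker genes had an unadjusted p under 0.05 in edgeR's quasi-likelihood test, beside 0.982% of all tested genes. With the replicate number as a block, 5 did, all lower in knockout, beside 4.77% of all tested genes in either direction. They were oma-1 (edgeR, unadjusted p = 0.0405) and oma-2 (0.0453) of the 8 germline and oocyte markers. The others were msp-142 (0.0116), spe-11 (0.0398) and nspd-4 (0.00572) of the 6 sperm markers. Every listed marker of germline, sperm, intestine, muscle, hypodermis, neurons and embryo was detected in all libraries, and the part of cell makeup or RNA quality in the snoRNA values was not tested. In whole worms, fewer cells of a type and less RNA per cell cannot be told apart. The level of crh-1 itself averaged 21.1 ± 2.63 CPM over wild-type libraries and 19.8 ± 3.53 CPM over knockout libraries (SD, n = 3).

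The snoRNA genes gave 2000891 counts in all, and a few genes carried a large part of them. Levels per length ranged from 1.19 to 9720 CPM per kb with a median of 27.4. The summed count chose the genes, so these levels are a description. The highest level belonged to ZK185.9 (WBGene00220238; WBcel235 chromosome IV, 4538702 to 4538916, minus strand), an RNA of 215 bases that lies in an intron of a protein-coding gene on the opposite strand and took 27.6% of all snoRNA counts. The 5 genes with the most counts held 48.5% of the snoRNA counts and the top 10 by count held 65.3%. At the other end, K11D9.10 with a summed count of 60 and F18C5.15 with 62 lay just inside the rule, and Y71D11A.7 and ZK994.7, both with 56, lay just outside it.

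As a group, snoRNA counts made up 1.15%, 0.908% and 1.03% of the counts outside rRNA genes across the wild-type replicates 1 to 3, and 1.62%, 2.34% and 0.797% across the knockout replicates 1 to 3. Thus 2 knockout libraries were above every wild-type library and the other was below all of them. The group means were 1.03% ± 0.121 in wild type and 1.59% ± 0.774 in knockout (SD, n = 3), a ratio of 1.54, or 1.17 without knockout replicate 2. The difference between the means was 0.555 percentage points, smaller than the spread among the knockout libraries. Exact binomial 95% intervals were narrow, the widest running from 2.34% to 2.35%, and cover counting error only.

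The choice of denominator moved knockout replicate 2 most. Per 1000 rRNA counts, the 6 libraries held 20.1, 17.6 and 29.5 snoRNA counts in N2 and 30.6, 16.6 and 26.9 in knockout. On this scale knockout replicate 2 was the lowest library of all, where it had been the highest among counts outside rRNA. Its composition differed too: ZK185.9 took 12.1% of the snoRNA counts in knockout replicate 2, 42.5% in knockout replicate 3 and 27.7% to 29.6% in the other 4 libraries. Without ZK185.9, the share outside rRNA was 0.819%, 0.657% and 0.746% in wild type and 1.14%, 2.06% and 0.458% in knockout.

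**Figure D1:**
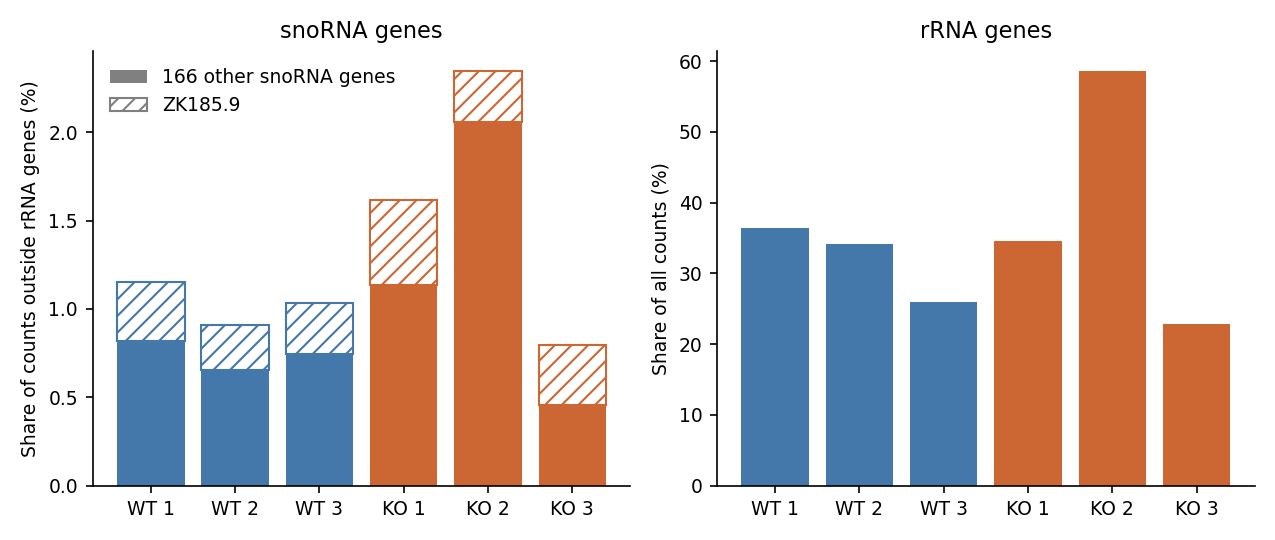
Left, share of counts outside rRNA genes (%) taken by snoRNA genes in each library, with the part of ZK185.9 hatched. Right, share of all counts (%) taken by rRNA genes. Bars are single libraries (WT blue, KO orange); knockout replicate 2 has the highest bar in both panels, at 2.34% and 58.5%.

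Most of the abundant genes were highest in knockout replicate 2. ZK185.9 stood at 1895, 1463 and 2015 CPM in N2 and 2951, 1885 and 2331 CPM in knockout. Its highest library was knockout replicate 1, and knockout replicate 2 lay among the wild-type values. The fitted log2 fold change of knockout over wild type was 0.42 with a standard error of 0.27 (edgeR quasi-likelihood test, unadjusted p = 0.16). Y38F2AR.14 (chromosome IV, 2408508 to 2408635, minus strand), in an intron of Y38F2AR.12, was second by level per length, with 529, 310 and 456 CPM in N2 and 904, 1301 and 443 CPM in knockout. Its knockout replicate 3 lay within the wild-type range, so the groups overlapped. The log2 fold change was 1.03 with a standard error of 0.40 (edgeR, unadjusted p = 0.0324, adjusted p = 0.996).

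Next came Y53F4B.48 (chromosome II, 15165894 to 15166028, minus strand), at 267, 267 and 351 CPM in N2 and 409, 1096 and 146 CPM in knockout. The knockout held both its highest and its lowest library. F17C11.15 (chromosome V, 10966698 to 10966915, plus strand), in an intron of eef-1G, the gene of a translation elongation factor subunit, showed the same arrangement, with 192, 265 and 264 CPM in N2 against 332, 786 and 101 CPM in knockout. Y23H5B.10, F25H2.14 and Y75B12B.12 likewise had their highest level in knockout replicate 2; knockout replicate 3 was their lowest library except in Y75B12B.12, where wild-type replicate 2 was lower. F25H2.14 lies in the single intron of tct-1, which encodes the translationally controlled tumour protein. Without knockout replicate 2, the log2 fold change was -0.02 in place of 0.90 in Y53F4B.48, -0.04 in place of 0.85 in Y23H5B.10 and -0.09 in place of 0.76 in F17C11.15. The remaining pair, W08G11.6 and Y37E3.22, both lie in host introns and had log2 fold changes of 0.90 and 0.66, or 0.54 and 0.46 without that library.

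Of the 10 genes, F26D10.24 was the one whose groups did not overlap. It is an RNA of 124 bases (WBGene00219917; chromosome IV, 17280046 to 17280169, plus strand) in the second of 3 introns of hsp-1, the gene of a constitutive heat shock protein 70 chaperone. Its level was 177, 83.0 and 123 CPM in N2 and 288, 581 and 188 CPM in knockout. Every knockout library was above every wild-type library. The log2 fold change was 1.47 with a standard error of 0.46, a fold of 2.77 with a 95% interval of 1.34 to 5.71 (edgeR, unadjusted p = 0.0114, adjusted p = 0.996). The host hsp-1 had a log2 fold change of -0.05. Without knockout replicate 2 the value for F26D10.24 was 0.93 (edgeR, unadjusted p = 0.044).

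**Figure D2:**
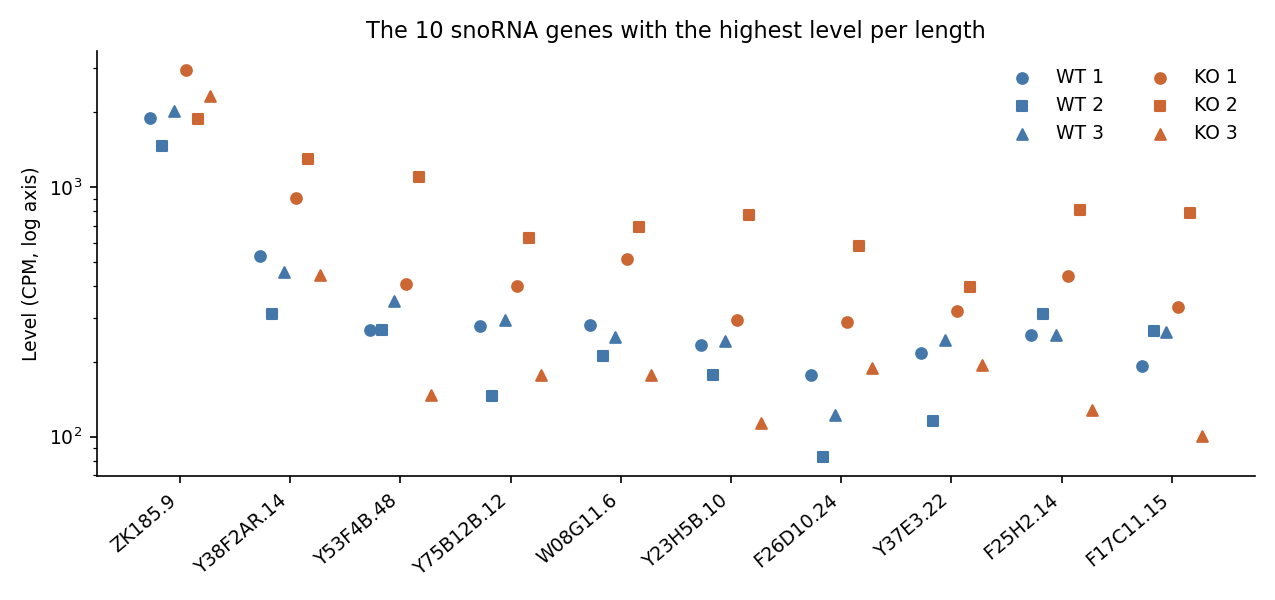
Level (CPM, log axis) of the 10 snoRNA genes with the highest level per length in each of the 6 libraries; circles, squares and triangles are replicates 1, 2 and 3. Orange squares (knockout replicate 2) are the highest points in 9 of the genes and lie within the wild-type range in ZK185.9.

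Tested across all genes, no snoRNA gene differed between the genotypes after adjustment. Of the 167 genes, 163 passed the filter on low counts; T23B12.13, Y6B3B.15, B0379.12 and K11D9.10 did not. Of these 163, 0 reached an adjusted p under 0.05 in edgeR's quasi-likelihood test, as did 0% of all 14354 tested genes, and the smallest adjusted p of a snoRNA gene was 0.996. At an unadjusted p under 0.05, 17 snoRNA genes (10.4%) were higher in knockout and 0 were lower, beside 0.404% of all tested genes that were higher. Among all 14354 tested genes, 83 were lower. DESeq2 gave an adjusted p under 0.05 for 0 of 167 snoRNA genes and 0.186% of all genes, and limma-voom for 0 snoRNA genes. At an unadjusted p under 0.05, in either direction, DESeq2 counted 31 (18.6%) beside 1.27% of all genes and limma-voom 5 (3.07%) beside 1.07%.

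Log2 fold changes of the snoRNA genes lay mostly above 0. Their median was 0.79, the quartiles were 0.42 and 1.12, and the range was -0.62 to 3.16. Of the 163, 151 were positive and 12 negative, where 7507 of all 14354 tested genes were positive with a median of 0.02. A log2 fold change above 1 was seen in 52 (31.9%) of the snoRNA genes and in 1.64% of all tested genes. The groups did not overlap, with knockout higher, in 9 snoRNA genes (5.52%) and in 1.72% of all tested genes. With library totals in place of the TMM factors, the median of all genes moved to -0.21 and that of the snoRNA genes to 0.38.

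These values rested on single libraries to a large degree. Knockout replicate 2 was the highest library in 141 of the 163 genes, and the lowest library was wild-type replicate 2 in 73 of them and knockout replicate 3 in 59. Without knockout replicate 2 the log2 fold change was smaller in 153 of 163 genes, the median was 0.16 in place of 0.79, beside 0.03 over all genes, and 103 were positive. In that fit 2 of 165 snoRNA genes (1.21%) had an unadjusted p under 0.05 with knockout higher, against 0.154% of all genes. Without wild-type replicate 2 the median was 0.57, and without knockout replicate 3 it was 1.14. DESeq2 without knockout replicate 3 called 40 of the 73 snoRNA genes that it gave an adjusted p (54.8%), all higher, and called 2.49% of all genes in that direction, with the adjusted p under 0.05.

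**Figure D3:**
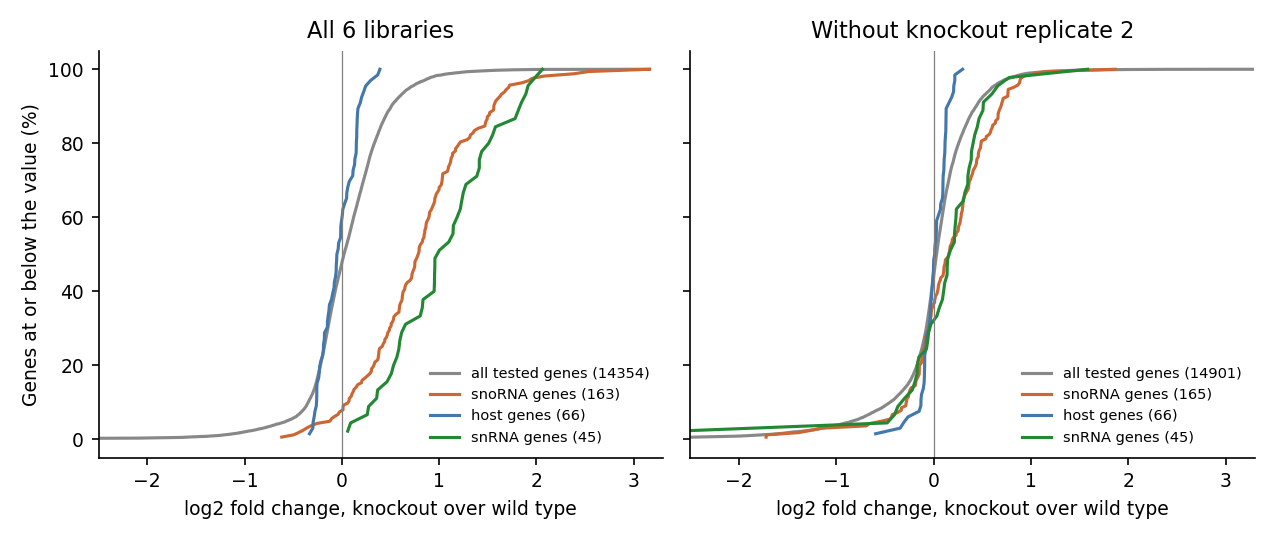
Percentage of genes at or below each log2 fold change of knockout over wild type, for all tested genes (grey), snoRNA genes (orange), their host genes (blue) and snRNA genes (green), with all 6 libraries (left) and without knockout replicate 2 (right). The snoRNA curve lies to the right of the grey one on the left, where the medians are 0.79 and 0.02, and close to it on the right, where they are about 0.16 and 0.03.

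The genes with the smallest unadjusted p were for the most part of low level. Y43F4B.11, an RNA of 75 bases in the last intron of klp-19, which encodes a kinesin (chromosome III, 13303339 to 13303413, minus strand), had 8, 1 and 6 counts in N2 and 19, 30 and 22 in knockout. All knockout libraries exceeded all wild-type libraries, on counts this small. Its wild-type counts were all under the filter's minimum count of 10, so the gene passed the filter through the knockout libraries alone. The filter thus bears on the lack of overlap and on the p-values given here, which are a description. The log2 fold change was 2.54 with a standard error of 0.76 (edgeR, unadjusted p = 0.00964, adjusted p = 0.996), and it was 1.86 without knockout replicate 2 (edgeR, unadjusted p = 0.0383). That gene and F26D10.24 were the 2 that kept an unadjusted p under 0.05 without that library.

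K12D12.6 (chromosome II, 11876460 to 11876554, plus strand) had the highest log2 fold change of all snoRNA genes, 3.16 with a standard error of 1.08 (edgeR, unadjusted p = 0.0179). It lies in an intron of top-2, the gene of a topoisomerase II. Its counts were 21, 12 and 2 in N2 and 31, 144 and 26 in knockout. On scaled library sizes the groups did not overlap, but knockout replicate 3 was little above wild-type replicate 1. Knockout replicate 2 alone held 144 of the 236 counts, and without it the log2 fold change was 1.15 (edgeR, unadjusted p = 0.174). DESeq2 with the replicate block called this gene (adjusted p = 0.0329), as did DESeq2 without wild-type replicate 1 (adjusted p = 0.0441) and without knockout replicate 1 (adjusted p = 0.0356). These settings were added after the data were seen, and the share of all genes called under them was not counted. C50C3.14 lies in an intron of prp-8, a core spliceosome gene, and had 2.89, 3.06 and 3.985 CPM in N2 and 6.92, 25.0 and 3.998 CPM in knockout. The groups did not overlap, but knockout replicate 3 was barely above wild-type replicate 3. Its log2 fold change was 1.85, or 0.76 without knockout replicate 2.

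The other genes among the 10 with the smallest p were C14E2.12, W05B2.9, Y53F4B.47, F28C6.11, K07C5.10 and T23G5.7, with log2 fold changes from 1.58 to 2.38. Y53F4B.47, an RNA of 80 bases outside other genes, was the most abundant of them, at 24.1, 7.27 and 21.5 CPM in N2 and 39.7, 110 and 20.5 CPM in knockout. Its knockout replicate 3 lay below 2 of the 3 wild-type libraries. W05B2.9 had 0.597, 0.210 and 0.466 CPM in N2 and 0.741, 5.41 and 0.619 CPM in knockout, where replicate 2 stood far above all others. F28C6.11 lies in an intron of rpl-26, a ribosomal protein gene, and T23G5.7 in an intron of rnr-1, which encodes the large subunit of ribonucleotide reductase. The groups of C14E2.12 and W05B2.9 did not overlap, and the same held for F01D5.12, Y55F3BR.9 and F48A9.6, which are outside the 10 and are named for this after their values were seen.

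A few genes had knockout means at or under wild type. Y74C9A.6 (chromosome I, 3747 to 3909, minus strand), the 14th by level per length, stood at 181, 171 and 213 CPM in N2 and 174, 246 and 129 CPM in knockout, and was chosen here for its negative value among the abundant genes. Its knockout libraries lay on both sides of the wild-type range. The log2 fold change was -0.04 with a standard error of 0.30. The lowest value of all, -0.62 with a standard error of 0.70, belonged to F18C5.15, which lies in an intron of utp-20, whose yeast counterpart acts in the processing of small subunit rRNA. It had 62 counts in all, and none of the 12 negative genes had an unadjusted p under 0.05 in edgeR.

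Library by library, the snoRNA genes did not move one way. Libraries with the same replicate number deviated together from their group means, and the knockout library was set against the wild-type library of the same number. The median log2 difference over the 163 genes was 0.33 for number 1, 1.64 for number 2 and -0.45 for number 3. The knockout library was the higher of the pair in 130, 157 and 40 genes in turn. In 24 genes (14.7%) it was higher in all 3 pairs, as in 11.2% of all tested genes. With the replicate number as a block, the fit gave a median log2 fold change of 0.59 and again 17 snoRNA genes (10.4%) with an unadjusted p under 0.05 and knockout higher in edgeR, beside 1.73% of all tested genes. Of these 17, 9 also had an unadjusted p under 0.05 without the block. Among the named genes, Y53F4B.47, F28C6.11, W05B2.9 and F01D5.12 were no longer under 0.05 in the blocked fit (edgeR, unadjusted p = 0.0651, 0.0684, 0.0756 and 0.0519), and K07C5.18 came under it (edgeR, unadjusted p = 0.00813).

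Annotated lengths fell into 3 ranges, whose limits were set after the lengths were seen. A group of 49 genes had 62 to 99 bases with a median of 75, 86 genes had 103 to 157 bases with a median of 131, and 32 had 161 to 325 bases with a median of 187. The shortest range held 1.66% of the snoRNA counts, the middle one 50.6% and the longest, with ZK185.9, 47.7%. Median levels per length were 14.1, 52.9 and 32.1 CPM per kb.

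Genes of the longest range had the smallest log2 fold changes, with a median of 0.44 and 25 of 32 positive, and 0.00 without knockout replicate 2. The medians were 0.85 in both shorter ranges, with 45 of 48 and 81 of 83 tested genes positive, and 0.30 and 0.16 without knockout replicate 2. The Spearman correlation of length and log2 fold change over the 163 genes was -0.21; the genes share their 6 libraries, and it is given as a description. In the pair of number 2 the median log2 difference was 1.59 in the shortest, 1.94 in the middle and 0.66 in the longest range. Wild-type replicate 2 was the lowest library in 40 of 48 short genes, 30 of 83 middle ones and 3 of 32 long ones. Noncoding genes of other biotypes had a median of 0.39 over 49 tested genes of under 100 bases. Over 70 tested genes of the middle range it was 0.51, and these include the small nuclear RNA genes of that length described below.

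**Figure D4:**
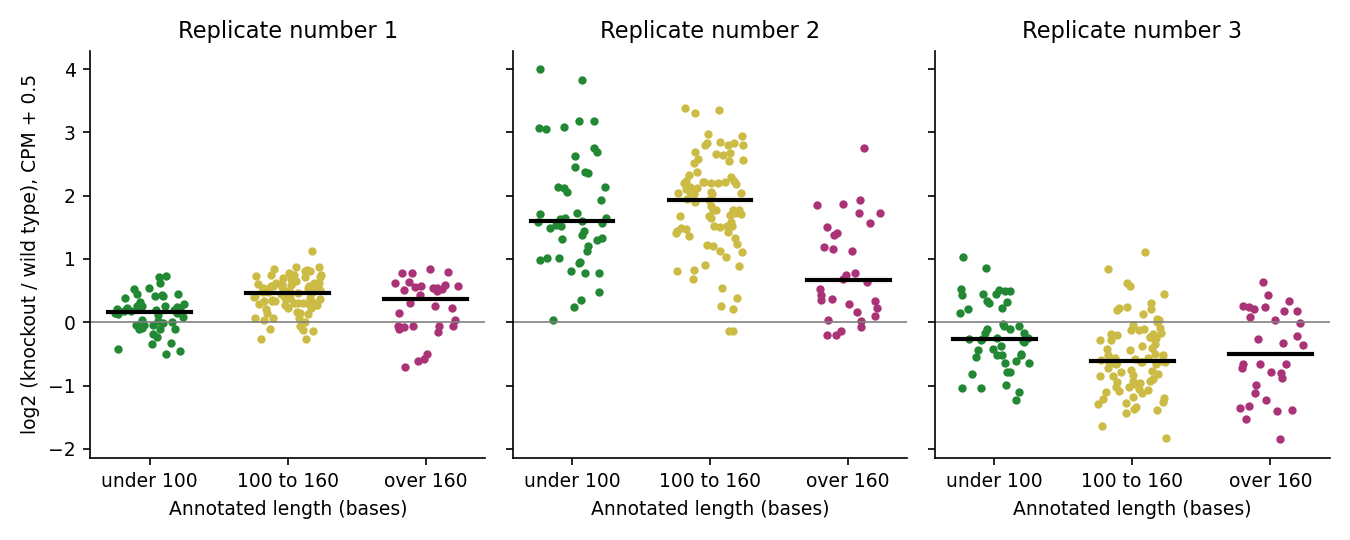
log2 difference of CPM + 0.5 between the knockout and the wild-type library of the same replicate number, for tested snoRNA genes by annotated length in bases; each point is a gene and black bars are medians. The medians over all genes are 0.33, 1.64 and -0.45 for numbers 1, 2 and 3.

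By place in the genome, 87 of the 167 genes lay inside an intron of a protein-coding gene on their own strand, their host. Another 12 overlapped an exon on the same strand, 13 an exon on the other strand, 11 lay in an intron on the other strand, and 44 lay outside other genes. Reads that overlap exons of a second gene on the same strand were not assigned, so the levels of those 12 are uncertain; their median level was 7.40 CPM per kb against 36.6 for genes in host introns. The median log2 fold change was 0.78 in host introns, 0.43 in same-strand exons, 0.85 opposite to exons, 0.86 opposite to introns and 0.79 outside genes. Positive values were in the majority in each of these places.

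The 87 intronic genes had 71 hosts. Genes with a ribosomal protein name (rpl or rps) made up 11 hosts with 16 snoRNA genes, and 13 hosts held more than 1 snoRNA gene. Ribosomal protein genes under other names were not counted. Introns that hold a snoRNA gene had 148 to 10404 bases with a median of 270. A snoRNA's level per length was above that of its host's exons in 35 pairs and below it in 52, with a Spearman correlation of 0.41 over the 87 genes, some of which share a host. This correlation is across genes in the same libraries and is a description. How well short RNAs were recovered beside host exons was not tested, nor was the part of unspliced host RNA in the snoRNA counts. The levels are therefore not a measure of relative abundance.

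The hosts did not share the positive values of their snoRNAs. Over the 66 tested host genes the median log2 fold change was -0.04, 27 were positive and the range was -0.33 to 0.39. Of these hosts, 0 had an unadjusted p under 0.05 in edgeR, beside 0.982% of all tested genes. In the 80 pairs with both genes tested, the snoRNA's log2 fold change exceeded its host's in 73, with a median difference of 0.83. The Spearman correlation of the 2 changes was -0.21 over these pairs. Without knockout replicate 2 the median difference was 0.03, without knockout replicate 3 it was 1.32, and it ran from 0.52 to 0.92 under the other scalings, filters and tests.

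**Figure D5:**
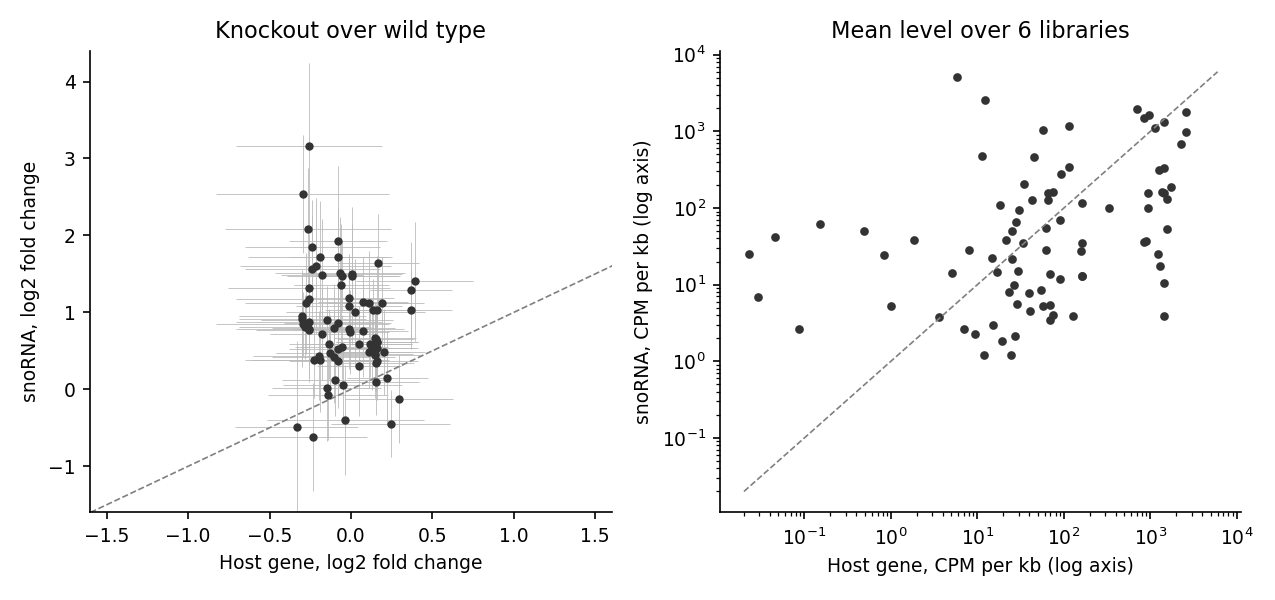
Left, log2 fold change of each intronic snoRNA gene against that of its host gene, with standard errors as bars. Right, mean level (CPM per kb, log axes) of both. Dashed lines mark equal values; 73 of 80 points lie above the line on the left, and 35 of 87 on the right.

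The host with the most snoRNA genes was nol-56 (WBGene00010627; chromosome V, 10350466 to 10352978, minus strand), which itself encodes a core protein of C/D box particles. It has 7 introns and held 4 snoRNA genes, K07C5.11 in the first intron, K07C5.12 in the fifth, K07C5.10 in the sixth and K07C5.18 in the seventh. Their levels differed although they share a host: 114.9 CPM per kb for K07C5.10, 34.6 for K07C5.18, and 13.13 and 12.97 for K07C5.11 and K07C5.12.

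K07C5.10 stood at 9.19, 7.99 and 4.69 CPM in N2 and 16.6, 49.3 and 5.91 CPM in knockout. K07C5.18 stood at 3.09, 2.31 and 0.326 CPM in N2 and 3.47, 17.1 and 1.28 CPM in knockout. In both, knockout replicate 2 was the highest library and knockout replicate 3 fell among the wild-type values. Log2 fold changes were 1.71 for K07C5.10, 1.92 for K07C5.18, 0.52 for K07C5.12 and 0.37 for K07C5.11, with standard errors of 0.66, 0.98, 0.60 and 0.61. The exons of nol-56 itself stood at 191, 275 and 331 CPM in N2 and 203, 250 and 304 CPM in knockout, a log2 fold change of -0.08.

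Genes of the proteins that build snoRNA particles lay close to 0. The C/D box proteins are fibrillarin (fib-1), the methyltransferase, with nol-56, nol-58 and snu-13. Fibrillarin mRNA stood at 246, 288 and 391 CPM in N2 and 240, 268 and 376 CPM in knockout. The same-numbered libraries of both genotypes were closer to each other than replicates of a genotype were. Log2 fold changes of the 4 genes ran from -0.08 to 0.07 with a median of -0.06.

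Of the H/ACA proteins, dkc-1, the dyskerin gene, had a log2 fold change of -0.08 with a standard error of 0.32, Y48A6B.3 of 0.06 and garr-1 of -0.14. The gene nola-3 was listed at 0 in all libraries. All 195 of its annotated bases also lie in exons of C25A1.16 on the same strand, and reads assigned to more than 1 gene were left out, so its level is not measured. The assembly helicases ruvb-1 and ruvb-2 had -0.09 and -0.16, and tgs-1, the gene of a cap hypermethylase, had -0.41 with a standard error of 0.31 (edgeR, unadjusted p = 0.219). None of these genes had an unadjusted p under 0.05.

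A wider list, drawn up for the nucleolus, with 19 of 21 genes found in the table, had a median log2 fold change of -0.12 and 2 positive values. Whether the product of each listed gene is nucleolar was not checked. Of the 19, 0 had an unadjusted p under 0.05 in edgeR, beside 0.982% of all tested genes. The values ran from -0.39 for mtr-4, an RNA helicase gene of the nuclear exosome, to 0.12 for nol-16. Among the others, nucl-1, the nucleolin gene, had -0.16, dao-5 had -0.12, and ncl-1, whose product represses fibrillarin in C. elegans, had -0.05.

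Small nuclear RNA (snRNA) genes, which include the RNAs of the spliceosome, had a similar order of libraries. The log2 fold change was positive in all 45 tested snRNA genes (median 1.00). Of these 45, 10 had an unadjusted p under 0.05 in edgeR, beside 0.982% of all tested genes in either direction. With the replicate number as a block 3 of the 45 did, beside 4.77% of all tested genes. The median of the snRNA genes was 0.17 without knockout replicate 2. The median log2 difference was 0.25 for pair number 1, 1.77 for number 2 and -0.29 for number 3, next to 0.33, 1.64 and -0.45 for the snoRNA genes. Their share of counts outside rRNA was 0.205%, 0.179% and 0.147% in wild type and 0.248%, 0.711% and 0.118% in knockout, again with knockout replicate 2 highest and knockout replicate 3 lowest. What sets these shares in single libraries was not tested.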

How the data were processed

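Total RNA of whole worms was sequenced in 3 wild-type and 3 knockout libraries. Per the file headers, the authors deposited raw counts of read pairs per gene, made with featureCounts 1.5.0 over exons at strand setting 2, with the WBcel235 annotation from Ensembl. By default, as in that command, multi-mapping reads and reads shared by overlapping genes are not counted, so levels of near-identical snoRNA copies are uncertain. The submitters' processing notes also name HISAT2 2.1.0, bcl2fastq 2.19 and DESeq2 1.26.0. Biotypes, positions and introns came from Ensembl 115 on the same build, in which 46449 of 46748 table genes have an entry. The position of 1 snoRNA gene differs between table and annotation.

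The tests used edgeR 4.0.16 (R 4.3.3) on the deposited counts: filterByExpr (minimum count 10, minimum total 15) left 14354 genes, TMM scaled them, and the quasi-likelihood F test compared knockout with wild type without covariates, with Benjamini-Hochberg adjustment over all tested genes and a threshold of 0.05. The fit was also tested on simulated counts. CPM uses TMM-scaled library sizes. DESeq2 1.42.0 and limma-voom (limma 3.58.1) were alternatives, with other scalings and filters and each library left out in turn. Marker and protein lists, the rule and the snoRNA genes were chosen with earlier results of these data known. Named snoRNA genes are the 10 with the highest level per length, the 10 with the smallest p, those next to the summed count of 60 and those of the host with most; all others named are said to be chosen after their values were seen or are named for a count. No genome sequence was used here, so sequences, box motifs and near-identical copies are not analysed.

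Deviations from the group means correlated across genes at 0.75, 0.47 and 0.64 for libraries of the same number and at -0.61 to 0.11 for others. All 3 exceed 0.1, but so does the unmatched pair of wild-type replicate 1 and knockout replicate 2, at 0.11, so that limit does not separate them. The 3 lie above every unmatched pair. The numbers were treated as pairing the samples, a working assumption since the labels do not say what a number shares. Deviations of a group sum to 0, which pushes the other correlations down. No library was a copy of another: chi-square per degree of freedom was 87.2 or more for every pair.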

Additional observations from a re-analysis of the deposited data

How the results depend on the processing

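Over all genes, edgeR called 0 genes at an adjusted p under 0.05, 5 with library totals only, 1 with the replicate block, and DESeq2 called 31. Called snoRNA genes stayed at 0 under every edgeR and limma-voom setting. DESeq2 called 1 with the replicate block, K12D12.6, and, leaving out 1 library, from 0 to 40. The 40 were without knockout replicate 3 (54.8%, beside 2.49% of all genes, higher in knockout). These DESeq2 settings were added after seeing the data, and the share of all genes called was not counted for the others. At an unadjusted p under 0.05 there were 17 snoRNA genes (10.4%, beside 0.982% of all genes in either direction), 28 without a filter (16.8%, beside 2.24%), 31 with DESeq2 (18.6%, beside 1.27%), 5 with limma-voom (3.07%, beside 1.07%) and 17 with the block (10.4%, beside 4.77%). With 1 library left out they ran from 2 (1.21%, beside 0.866%) without knockout replicate 2 to 83 (50%, beside 19.3%) without knockout replicate 3. The 9 without overlap (5.52%, beside 3.28%) ran from 9 (5.45%, beside 5.66%) to 80 (48.2%, beside 43.6%) for the same 2 libraries. Under other scalings they ran from 6 (3.68%, beside 2.66%) to 10 (6.13%, beside 3.48%). The median log2 fold change stayed positive throughout, from 0.16 to 1.14. Among 25 single genes, 6 of 395 recomputed values had the other sign and 0 passed the threshold: 5 without knockout replicate 2 and 1 with library totals. With each library left out in turn, values ran from -0.024 to 1.36 for Y53F4B.48, -0.039 to 1.30 for Y23H5B.10, -0.088 to 1.23 for F17C11.15, -0.28 to 0.87 for K07C5.11 and -0.17 to 1.00 for K07C5.12. With library totals, K07C5.11 had -0.046. The replicate block changed no other adjusted call of a snoRNA gene; its changes at an unadjusted p stand beside those results. The causes were not tested. Box motifs and a search for near-identical copies were planned and not run.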

Other observations

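snoRNA genes lay on each nuclear chromosome, and their tested members had medians of the log2 fold change from 0.48 on chromosome I to 1.03 on chromosome III, where all 31 tested genes were positive. On chromosome X the median was 0.85 over 11 genes and -0.07 without knockout replicate 2. Ranked by mean CPM and cut into 4 bins, the genes had medians of 0.38, 0.75, 1.02 and 0.79 from the lowest to the highest bin, and of 0.16, 0.15, 0.27 and 0.09 without knockout replicate 2. In 12 cases neighbouring snoRNA genes lay within 500 bases of each other on the same strand.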
